A study of Homo sapiens with 15 samples.

Results

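CDH1 and CLDN2 encode proteins of the contacts between epithelial cells, and their RNA was followed here across 5 groups of A549 cells, a human lung adenocarcinoma line. They were chosen by name, with earlier results of these data known, as 2 of the 296 genes measured by quantitative RT-PCR (RTqPCR). The cells grew at the air-liquid interface and received dimethylamine vapour at 14.9 ppm (low dose, LD), 41.1 ppm (mid dose, MD) or 81.7 ppm (high dose, HD), clean air with the same flow (CA, 0 ppm), or neither vapour nor flow (NEC). Each group had 3 samples, every one labelled as a biological replicate made from 2 pooled wells. Each exposure lasted 60 min and was followed by 23 h of recovery, which was repeated to 3 exposures in 72 h. Outside NEC, every cm² of culture received 3 ml/min. Serum had been removed beforehand. Exposure plate 1 held the LD samples, plate 5 the MD samples and plate 6 the HD samples, and each of these plates also held 1 CA and 1 NEC sample. Plates are described as holding 4 exposed cultures, and how 3 replicates of 2 wells fitted on 1 plate is not given in the sources used here. Where 3 replicates come from 1 plate, their spread may be partly technical, and how a dose acts on another plate was not measured.

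CDH1, on chromosome 16, encodes E-cadherin, the adhesion protein of adherens junctions, which binds E-cadherin on the neighbouring cell and holds the actin cytoskeleton through catenins inside the cell. Loss of E-cadherin is a classic mark of epithelial-mesenchymal transition, in which repressors of the SNAI and ZEB families act on E-box sequences. CLDN2, on chromosome X, encodes claudin-2, a tight junction protein that forms a pore for small cations and water between cells, so that it makes an epithelium leakier while most claudins seal it. A549 cells are known to express claudin-2, and many lung adenocarcinomas carry more of it than normal lung.

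The bases before both CLDN2 transcription starts listed by RefSeq (GRCh38.p14, + strand) are shown as reference sequence and are not part of the RNA that was measured. The set of promoters used held none for CDH1, so CDH1 was not searched for these motifs. Capitals mark the motifs in CLDN2, the E-box CANNTG and the AP-1 type motif TGANTCA, which were searched for on both strands and read the same on either.
CLDN2 upstream of the first start, chrX:106899914-106900163: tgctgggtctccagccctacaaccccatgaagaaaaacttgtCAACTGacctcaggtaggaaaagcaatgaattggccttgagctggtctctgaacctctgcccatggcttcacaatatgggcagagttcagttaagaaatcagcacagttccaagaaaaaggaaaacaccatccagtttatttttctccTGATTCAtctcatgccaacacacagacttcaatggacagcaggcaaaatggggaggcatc
CLDN2 upstream of the second start, chrX:106918110-106918359: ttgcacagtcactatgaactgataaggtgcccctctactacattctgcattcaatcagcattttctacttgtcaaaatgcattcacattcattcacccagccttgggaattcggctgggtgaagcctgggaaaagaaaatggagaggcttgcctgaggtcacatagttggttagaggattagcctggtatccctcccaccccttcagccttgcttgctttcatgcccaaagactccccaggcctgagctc
The first window held 1 match to CANNTG and 1 to TGANTCA, and the second held neither. Among 35116 human promoter windows of the same 250 bases, 61.8% held CANNTG and 6.57% held TGANTCA. The form CACCTG (or CAGGTG), 1 kind of E-box and so part of CANNTG, was in 17.5% of windows and in neither CLDN2 window. A match describes letters and no binding, and which start A549 cells use was not measured.

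Expression is given as the negative ΔCT, where the threshold cycle (CT) of a gene is taken relative to the mean CT of GPN1 (a GTPase) with TMEM184C (a transmembrane protein), the pair used for normalisation. The scale is log2, so 1 unit stands for about 1 doubling, and a higher value means more RNA. Levels are compared between samples of a gene and never between the genes, whose assays differ. Both genes were read early and in all 15 samples. In CA their mean CTs were 23.5 ± 0.20 for CDH1 and 20.7 ± 0.12 for CLDN2 (SD, n = 3), which placed CLDN2 21st and CDH1 69th from the lowest CT among 282 genes with a median of 25.2. A low CT leaves no well of either gene near the limit of 35 cycles that was set for late wells.

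CDH1 RNA was lower at HD and MD than in CA. Its level was 1.48, 1.39 and 1.25 in the 3 CA samples (plates 1, 5 and 6), and 1.44, 1.41 and 1.33 in the NEC samples of the same plates. The LD samples stood at 1.34, 1.20 and 1.06, which overlapped with CA at its lower end. The MD samples stood at 0.86, 0.62 and 0.84, and the HD samples at 0.40, 0.46 and 0.67. All MD samples lay below all LD samples, as in 14.9% of genes tested, while MD and HD overlapped with each other. All HD samples lay below all CA samples, as in 32.3% of genes tested, and so did all MD samples, as in 28.7%. As group means this gave 1.37 ± 0.12 in CA, 1.39 ± 0.055 in NEC, 1.20 ± 0.14 in LD, 0.77 ± 0.13 in MD and 0.51 ± 0.14 in HD (SD, n = 3). The order from high to low was thus NEC, CA, LD, MD and HD, of which the neighbours NEC and CA, CA and LD, and MD and HD overlapped.

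CLDN2 RNA was lower at each dose than at the dose below it. The CA samples lay very close together at 4.15, 4.13 and 4.14, and the NEC samples stood at 4.31, 4.24 and 4.14. The LD samples stood at 3.87, 3.86 and 3.66. All of them lay below all CA samples, as in 19.1% of genes tested. MD followed with 3.47, 3.46 and 3.32, and HD with 3.24, 2.96 and 3.12. No CLDN2 value of a dose overlapped with that of the dose below it. Taken singly as drops, this held for 14.9% of genes between MD and LD and for 22.2% between HD and MD. The share of genes with all steps at once was not counted. Only NEC and CA overlapped among neighbours. The group means were 4.14 ± 0.0096 in CA, 4.23 ± 0.088 in NEC, 3.80 ± 0.12 in LD, 3.41 ± 0.085 in MD and 3.11 ± 0.14 in HD (SD, n = 3).

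**Figure D1:**
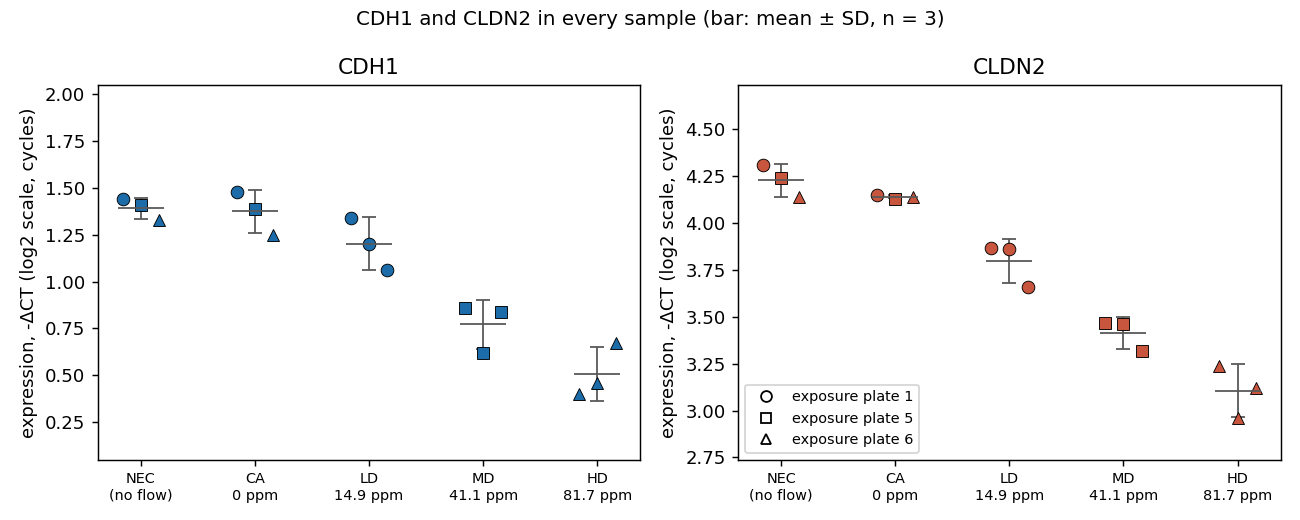
Expression of CDH1 (left) and CLDN2 (right) as negative ΔCT on the log2 scale in each of the 15 samples, by group, with symbols for the exposure plate and a bar for the mean ± SD (n = 3). CLDN2 steps down from CA at 4.14 to HD at 3.11 without overlap between doses, whereas CDH1 overlaps between CA and LD and between MD and HD.

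Tested against CA with limma, CDH1 at HD had a log2FC of -0.87 ± 0.11 (SE, n = 3 per group, adjusted p = 2.75e-05), which left 54.8% of the CA level. CLDN2 at HD had a log2FC of -1.03 ± 0.10 (adjusted p = 4.75e-06), which left 48.8%. The 95% intervals ran from -1.11 to -0.62 for CDH1 and from -1.26 to -0.81 for CLDN2. These falls stand on a panel in which most genes moved. At HD 76.2% of the 282 genes tested passed the threshold, 31.9% as falls, so that both members passing is close to what the panel as a whole did. Most panel genes had been chosen by the study for a response at HD in the same RNA on other platforms, and these shares are not those of unselected genes. By size of the fall CLDN2 ranked 48th and CDH1 61st at HD, and by p-value CLDN2 ranked 9th and CDH1 40th.

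At MD the log2FC was -0.60 ± 0.11 for CDH1 (adjusted p = 0.00101) and -0.73 ± 0.10 for CLDN2 (adjusted p = 1.47e-04), corresponding to 65.8% and 60.4% of the CA level (limma, SE, n = 3 per group). Both passed at a dose where 62.1% of all genes tested did. The fall of CLDN2 ranked 44th and that of CDH1 54th of 282 genes.

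At LD the genes stood on different sides of the threshold. CLDN2 had a log2FC of -0.34 ± 0.10 (limma, n = 3 per group, adjusted p = 0.0492), or 78.8% of the CA level, where 11.7% of all genes were called and 19.1% had all 3 LD samples below all 3 CA samples. The adjusted p of CLDN2 at LD lay just under the threshold and rose above it in 8 of 10 other settings, up to 0.390 without normalisation genes, and in 12 of 15 fits that left out 1 sample, up to 0.192 without LD replicate 3. CDH1 at LD had a log2FC of -0.17 ± 0.11 (adjusted p = 0.354), with a 95% interval from -0.42 to 0.075. That interval holds the value found for CLDN2, so the LD response of CDH1 is not shown to be absent or smaller.

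The flow alone, as NEC against CA, gave no change that could be resolved. The log2 difference of NEC from CA was 0.016 ± 0.11 for CDH1 (95% interval -0.23 to 0.26, adjusted p = 0.962) and 0.087 ± 0.10 for CLDN2 (-0.13 to 0.31, adjusted p = 0.776, limma, n = 3 per group), where 1.06% of all genes were called. On plates 1, 5 and 6 NEC differed from the CA sample of the same plate by -0.045, 0.017 and 0.077 for CDH1 and by 0.16, 0.10 and -0.0021 for CLDN2.

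**Figure D2:**
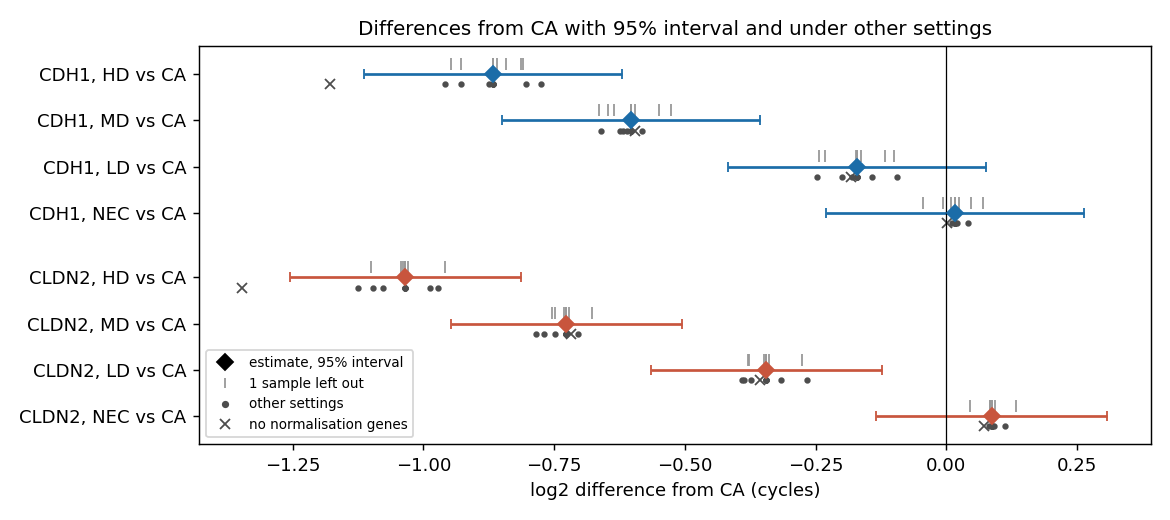
Log2 differences of HD, MD, LD and NEC from CA for CDH1 (blue) and CLDN2 (red), as the estimate with its 95% interval (diamonds), with 1 sample left out (ticks), under other settings (dots) and without normalisation genes (crosses). HD and MD lie below 0 in every setting, and at HD the estimate without normalisation genes lies farthest to the left, at -1.18 for CDH1 and -1.35 for CLDN2.

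Because each dose had its own plate, the same values were taken within plates. On plate 6 the HD mean differed from the CA sample by -0.74 and from the NEC sample by -0.82 for CDH1, and by -1.03 from both for CLDN2. On plate 5 the MD mean differed from the CA sample by -0.62 for CDH1 and by -0.72 for CLDN2. On plate 1 the LD mean differed from the CA sample by -0.28 for CDH1 and by -0.35 for CLDN2. All 3 samples of each dose lay below both controls of their own plate, for both genes, as did 26.2% of genes tested at LD, 33.3% at MD and 33% at HD. For CDH1 the controls themselves were highest on plate 1 and lowest on plate 6, in CA as in NEC, which is the order of the doses. For CLDN2 the NEC samples of plates 1, 5 and 6 had the same order (4.31, 4.24 and 4.14), while the CA samples did not (4.15, 4.13 and 4.14). With plate as a block the log2FC at HD was -0.77 ± 0.14 for CDH1 (adjusted p = 4.49e-04) and -0.99 ± 0.13 for CLDN2 (adjusted p = 7.28e-05), and at MD -0.62 ± 0.14 (adjusted p = 0.00444) and -0.73 ± 0.13 (adjusted p = 0.00141). At LD neither gene was called with the block, with adjusted p = 0.283 for CDH1 and 0.0904 for CLDN2 (limma, n = 3 per group).

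Between doses, both genes went on falling from LD to MD. The log2 difference of MD from LD was -0.43 ± 0.11 for CDH1 (adjusted p = 0.0126) and -0.38 ± 0.10 for CLDN2 (adjusted p = 0.0126), in a comparison with 34.4% of genes called (limma, n = 3 per group). With the plate block the adjusted p was 0.292 for CDH1 and 0.301 for CLDN2. The CDH1 call was also lost without LD replicate 1 (adjusted p = 0.0502) and without MD replicate 2 (0.0517), and the CLDN2 call without LD replicate 2 (0.0538) and without MD replicate 3 (0.0608).

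From MD to HD the step was called for CLDN2 alone. CLDN2 differed by -0.31 ± 0.10 (adjusted p = 0.0485) and CDH1 by -0.26 ± 0.11 (adjusted p = 0.109), where 20.4% of 284 genes were called (limma, n = 3 per group). The CLDN2 step was not called with the plate block (adjusted p = 0.372) or in 11 of 15 fits that left out 1 sample, with adjusted p up to 0.184 without HD replicate 2. Across the whole range, HD differed from LD by -0.69 ± 0.11 for CDH1 (adjusted p = 2.51e-04) and by -0.69 ± 0.10 for CLDN2 (adjusted p = 1.41e-04), with 63.8% of genes called. Both calls remained with the plate block, at adjusted p = 0.0393 and 0.0176.

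As a straight line over all 12 samples that received the flow (CA, LD, MD and HD), CDH1 fell by 0.11 ± 0.015 and CLDN2 fell by 0.12 ± 0.015 log2 units per 10 ppm (SE, limma, adjusted p = 3.63e-05 and 1.54e-05), where 72.5% of 276 genes had a slope past the threshold. The group means lay within 0.12 of these lines. For both genes MD lay below the line and HD above it, with MD at -0.12 for each and HD at 0.056 for CDH1 and 0.070 for CLDN2. MD, at 50.3% of the HD concentration, gave 69.6% of the HD log2 difference for CDH1 and 70.2% for CLDN2. LD, at 18.2% of the HD concentration, gave 19.8% for CDH1 and 33.3% for CLDN2. The LD difference of CDH1 behind this share was -0.10 without LD replicate 3 and -0.24 without LD replicate 1, and -0.094 with the mean of all assays as the normaliser. These shares take CA over all plates. Against the 1 CA sample of the same plate, CDH1 differed by -0.28 at LD, -0.62 at MD and -0.74 at HD. CLDN2 differed there by -0.35, -0.72 and -1.03. On that basis LD and MD made up more of the HD difference of CDH1, and the LD share of CLDN2 was not the larger one.

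Whether the genes fell by different amounts was asked within samples, since in CLDN2 minus CDH1 the normalisation genes cancel out. This difference was 2.67, 2.74 and 2.89 in CA and 2.84, 2.50 and 2.46 in HD, so that 2 HD samples lay below CA and HD replicate 1 lay inside its range. HD differed from CA by -0.17, with an exact 90% interval from -0.43 to 0.17 (two-sided exact permutation test, p = 0.3, adjusted p = 0.4 over 4 comparisons). MD differed by -0.12 (-0.41 to 0.17, exact p = 0.4) and NEC by 0.071 (-0.079 to 0.20, exact p = 0.4). LD differed by -0.17 (-0.37 to -0.011), with values of 2.52, 2.66 and 2.60 that lay below all CA samples, at the smallest p of 0.1 that 3 against 3 samples allow (exact permutation, adjusted p = 0.4). Against the CA sample of the same plate alone, the LD difference was -0.076, the MD difference -0.10 and the HD difference -0.29. The HD difference was -0.29 without HD replicate 1 and -0.096 without HD replicate 3, and the MD difference ranged from -0.22 without MD replicate 2 to -0.042 without MD replicate 3. Over 12 samples the difference changed by -0.014 log2 units per 10 ppm (exact permutation over 369600 assignments, p = 0.334). This slope was -0.033 with each sample taken against the CA sample of its plate, -0.029 without HD replicate 1 (exact p = 0.0516), -0.0067 without HD replicate 3 and -0.0072 without CA replicate 3. With 3 against 3 samples no single dose could pass the threshold of 0.05, so these tests do not show that the genes fell alike. The size of a fall in cycles also depends on the efficiency of each assay, which is not known here.

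**Figure D3:**
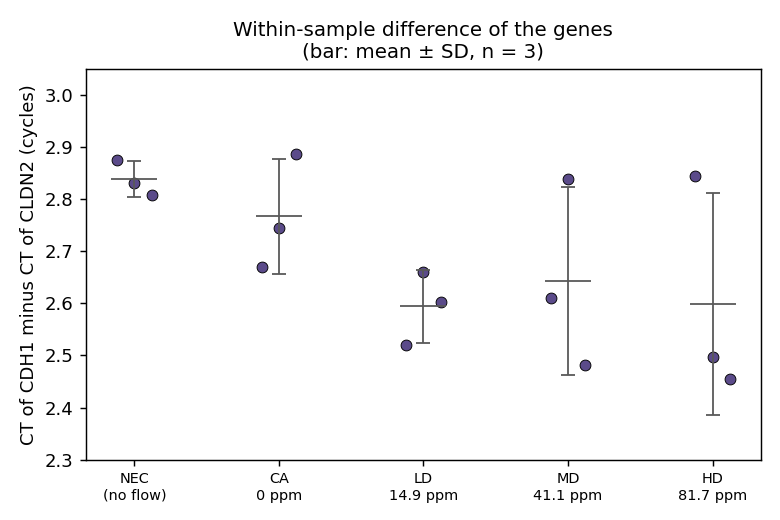
Within-sample difference CLDN2 minus CDH1 on the log2 expression scale, which equals the CT of CDH1 minus the CT of CLDN2, by group, with a bar for the mean ± SD (n = 3). The 3 LD samples, from 2.52 to 2.66, lie below the CA samples, from 2.67 to 2.89, while MD and HD overlap with CA.

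The normalisation genes moved little in most groups but were read later at HD. The mean CT of GPN1 and TMEM184C was 24.9 ± 0.11 in CA, 24.9 ± 0.14 in MD and 25.2 ± 0.33 in HD (SD, n = 3), a difference of 0.31 cycles between HD and CA. HD replicate 1 stood apart, with a pair mean of 25.6 against 25.1 and 24.9 in the other HD samples. In raw cycles CDH1 went from 23.5 in CA to 24.7 ± 0.46 in HD and CLDN2 from 20.7 to 22.1 ± 0.26 (SD, n = 3). Leaving out the normalisation genes therefore gave larger falls at HD, of -1.18 for CDH1 and -1.35 for CLDN2, and moved the median of all genes at HD by -0.31. Without HD replicate 1, with the normalisation genes, both genes kept their calls at HD. Less RNA per cell and fewer cells that carry a transcript cannot be told apart in such pooled cultures.

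Among all genes with a value in all 15 samples, those whose course was most like that of CLDN2 and CDH1 were sought by the root mean square difference of values centred on CA. Nearest to CLDN2 of 273 other genes was PDZK1, a PDZ scaffold of apical membrane transporters, with a difference of 0.12 log2 units, followed by F5, coagulation factor V, with 0.14 and C1S, a complement protease, with 0.15. Nearest to CDH1 were ARSB, a lysosomal sulfatase, with 0.14, ST8SIA4, a sialyltransferase that makes polysialic acid, with 0.14, and F5 with 0.15. The members themselves differed by 0.17, which made CDH1 the 4th nearest gene to CLDN2 and CLDN2 the 7th nearest to CDH1. The median difference over the panel was 0.74 from CLDN2 and 0.67 from CDH1. These 15 samples share their controls and their normalisation genes, so likeness is a description over them. PDZK1 had a log2FC of -0.97 ± 0.11 at HD (adjusted p = 7.69e-06), F5 of -0.89 ± 0.12 (4.16e-05), C1S of -1.15 ± 0.14 (1.51e-05), ARSB of -0.84 ± 0.097 (1.04e-05) and ST8SIA4 of -1.03 ± 0.14 (2.69e-05, limma, n = 3 per group).

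**Figure D4:**
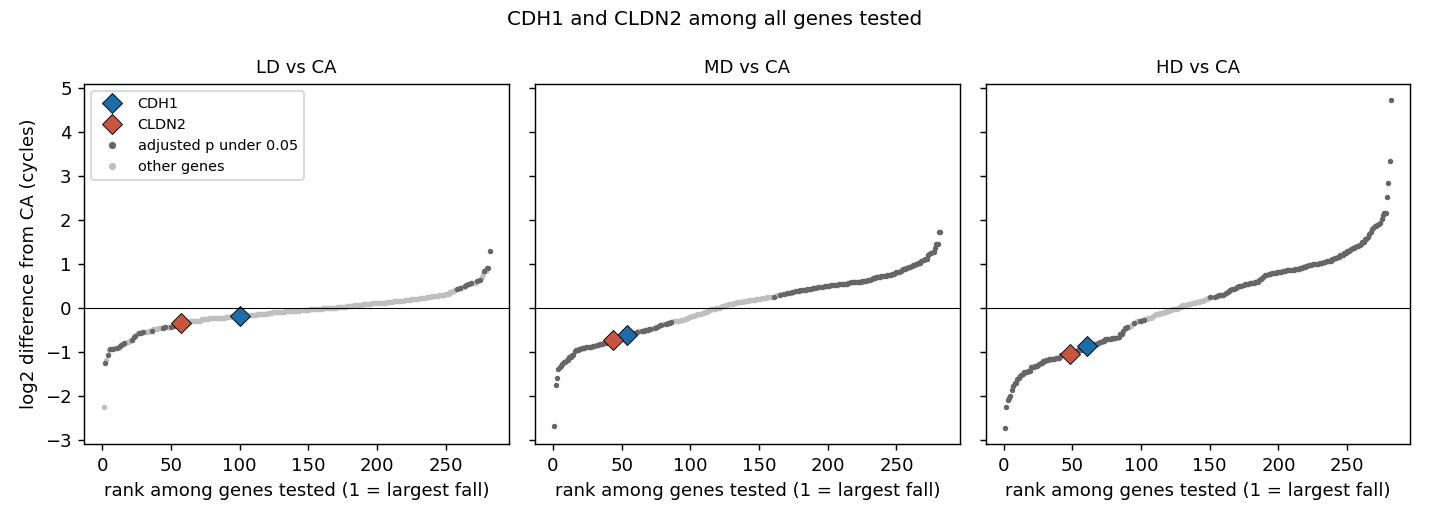
Log2 differences from CA of all 282 genes tested at LD, MD and HD, sorted from the largest fall, with genes past the threshold in dark grey, CDH1 in blue and CLDN2 in red. CLDN2 ranks 57th, 44th and 48th and CDH1 100th, 54th and 61st, inside the broad group of falling genes and not at its end.

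Other junction genes on the panel were few. Of a list of 28 adherens junction genes, only CDH1 and CTNND1 had an assay. CTNND1, which encodes p120-catenin, the partner that keeps E-cadherin at the membrane, had a log2FC of -0.14 ± 0.098 at HD (adjusted p = 0.205), -0.17 ± 0.098 at MD (0.137) and -0.092 ± 0.098 at LD (0.585, limma, n = 3 per group). With the mean of all assays as the normaliser it was called, at -0.23 at HD (adjusted p = 0.0386) and at -0.23 at MD (0.0492). Of 37 tight junction genes CLDN2 alone was on the panel, so the sealing claudins, occludin and the ZO proteins were not analysed here. Of a list of 25 genes of polarity complexes and apical scaffolds, only the scaffold PDZK1 was present.

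Of 34 genes of desmosomes, gap junctions and hemidesmosomes 3 are reported, of which 2 rose and 1 fell at HD, where 44.3% of all genes tested rose and 31.9% fell, with a median of 1.01 against 0.14 for all genes tested. The list was drawn up with earlier results of these data known, so its median is a description only. GJB1, the gap junction protein connexin 32, fell by 1.50 ± 0.20 at HD (adjusted p = 2.69e-05) and by 0.88 ± 0.20 at MD (0.00290). COL17A1, a transmembrane collagen of hemidesmosomes, rose by 1.01 ± 0.14 at HD (adjusted p = 4.19e-05) and by 0.80 ± 0.14 at MD (7.12e-04). LAMA3, a chain of laminin-332, to which hemidesmosomes attach, rose by 1.40 ± 0.19 at HD (adjusted p = 2.83e-05) and by 1.45 ± 0.19 at MD (9.01e-05). None of these 3 genes passed at LD against CA (limma, n = 3 per group). With CA and NEC as joint control, GJB1 (adjusted p = 0.0187), COL17A1 (0.0362) and LAMA3 (0.0187) passed at LD. GJB1 also passed there with TMEM184C alone as the normaliser (0.0482). PPL, CTNNAL1 and CLMP, which encode periplakin of desmosomes, a relative of alpha-catenin and an adhesion molecule found at tight junctions, were chosen after their values were seen, so their p-values are no independent test. At HD, where 44.3% of all genes tested rose, they rose by 0.87, 0.88 and 0.99 (limma, adjusted p = 4.68e-04, 4.04e-05 and 0.00127). PPL was not called at HD without normalisation genes (0.0749). At MD PPL rose by 0.59 (adjusted p = 0.00960), while CTNNAL1 had 0.057 (0.688) and CLMP 0.46 (0.0828, and 0.0380 with TMEM184C alone).

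Of 37 mesenchymal and matrix genes that are known to rise in epithelial-mesenchymal transition, 7 were measured. At HD 6 rose and 1 fell, so that all passed on a panel where 76.2% of genes did (44.3% as rises), with a median of 1.12 against 0.14 for all genes tested. This list too was drawn up with earlier results of these data known, so its median describes the members and tests nothing. The one that fell was FN1, fibronectin, with a log2FC of -1.85 ± 0.19 at HD (adjusted p = 5.24e-06) and -1.34 ± 0.19 at MD (1.39e-04). LOXL2, a lysyl oxidase that cross-links collagen, rose by 1.93 ± 0.20 at HD (adjusted p = 5.88e-06), 1.72 ± 0.20 at MD (6.52e-05) and 0.91 ± 0.20 at LD (0.0312), of which the LD call was lost with GPN1 alone (0.0814). SERPINE2, an inhibitor of serine proteases, rose by 1.12 ± 0.13 at HD (adjusted p = 1.16e-05) and by 0.89 ± 0.13 at MD (2.02e-04). AXL, a receptor tyrosine kinase, rose by 1.38 ± 0.20 at HD (adjusted p = 5.42e-05) and had 0.39 ± 0.20 at MD (0.0994). ANKRD1, a transcriptional cofactor that responds to YAP, rose by 3.34 ± 0.35 at HD (adjusted p = 5.88e-06) and by 0.93 ± 0.35 at MD (0.0357), where the call was lost with the plate block (0.166). ACTA2, smooth muscle actin, and S100A4, a calcium-binding protein, rose at HD and MD (limma, n = 3 per group), and S100A4 was not called at HD without normalisation genes (0.160) or at MD with the plate block (0.0544).

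Regulators of epithelial identity were thinly covered. Of 37 transcription factors, which included the repressors of CDH1, EHF and HES1 were on the panel, and both fell at HD and MD, where 31.9% and 25.9% of all genes fell. EHF is an ETS factor of epithelia and HES1 a repressor downstream of Notch, and the SNAI, ZEB and TWIST genes were not analysed here. The EHF call at MD was lost with GPN1 alone (limma, adjusted p = 0.0585), without normalisation genes (0.191) and in the compared groups alone (0.104). The HES1 call at MD was lost in the compared groups alone (0.0663). WNT4, the single member of 26 Wnt pathway genes, fell at all doses, at LD with a call that was lost with GPN1 alone (0.0814). Both measured EGFR ligands of a list of 11, AREG and EREG, rose at HD and MD, where 44.3% and 36.2% of all genes rose. AREG (amphiregulin) rose by 1.50 ± 0.22 at HD (adjusted p = 5.09e-05) and by 0.75 ± 0.22 at MD (0.00960, and 0.0647 with the plate block). MMP7, matrilysin, the single measured member of 16 proteases known to cleave E-cadherin, had 0.51 ± 0.23 at HD (adjusted p = 0.0568) and rose by 0.70 ± 0.23 at MD (0.0190). With the plate block MMP7 rose by 0.91 ± 0.16 at HD (adjusted p = 4.23e-04, limma, n = 3 per group). The MMP7 call at MD was lost without normalisation genes (limma, adjusted p = 0.0683).

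**Figure D5:**
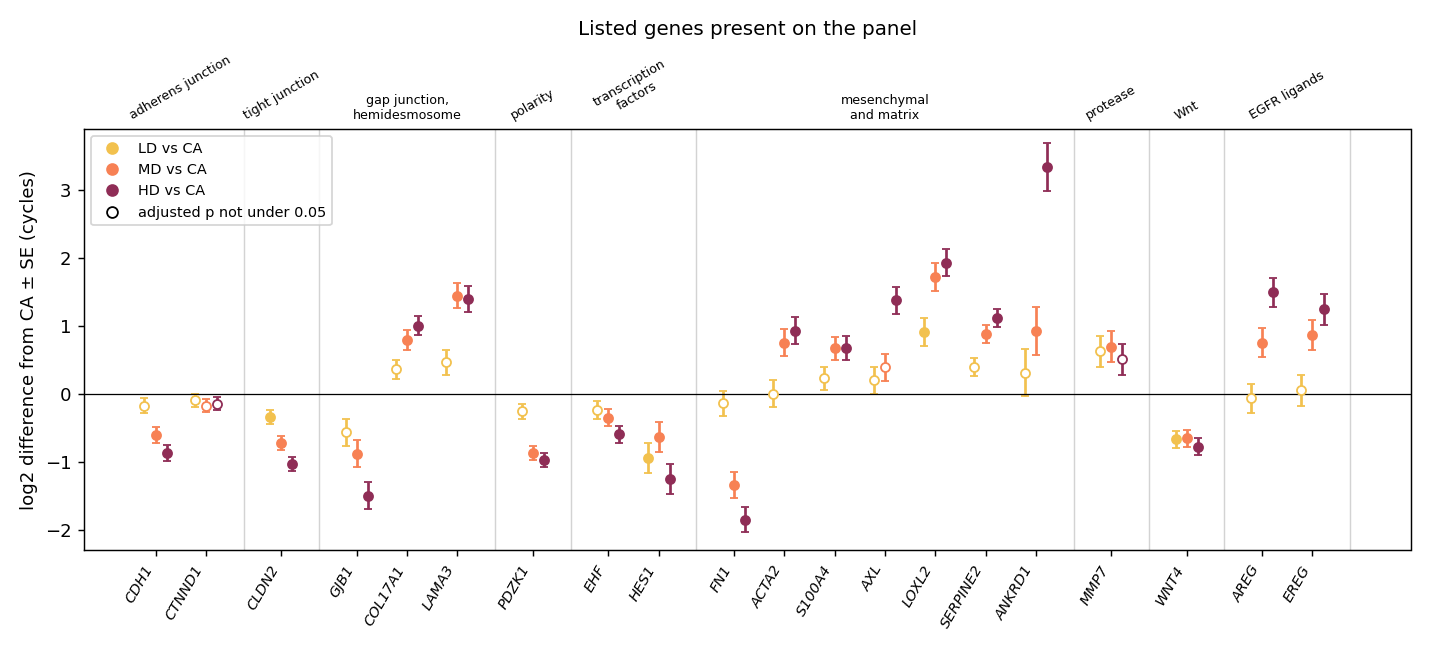
Log2 differences from CA ± SE at LD, MD and HD (n = 3 per group) for 20 genes of the junction, regulator and mesenchymal lists, with open symbols where the adjusted p was not under 0.05. CDH1, CLDN2, GJB1, PDZK1 and FN1 lie below 0 at HD, whereas COL17A1, LAMA3 and most mesenchymal genes lie above it.

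KRT18, a keratin of simple epithelia and beside CDH1 the only one of 11 epithelial markers on the panel, did not pass the test at any dose. Its level was 5.62 ± 0.17 in CA and 5.60 ± 0.12 in HD (SD, n = 3), with a log2FC of -0.023 ± 0.11 (adjusted p = 0.850) at HD and 0.24 ± 0.11 (0.0768) at MD, where it was called with TMEM184C alone (0.0180). Of the markers of other cell types, none of 10 for fibroblasts and none of 8 for endothelium had an assay. Of 10 leukocyte markers CD79A was measured and rose at HD by 1.20 ± 0.15 (adjusted p = 2.04e-05), and of 8 ciliated cell markers TPPP3 fell by 1.34 ± 0.19 (5.47e-05) and CFAP53, read late with a CT of 31.2 in CA, rose by 1.73 ± 0.69 (0.0370, limma, and 0.204 with the plate block). The part of these genes in the change of CDH1 and CLDN2 was not tested.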

How the data were processed

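RNA of 15 A549 samples in 5 groups, taken from the labels, was measured by RTqPCR on customised PCR arrays. The threshold cycles were deposited by the authors as a score in cycles per well, with nd where no product was found. The authors also deposited ΔCT values on a log2 scale, which equalled the CT minus the mean CT of GPN1 and TMEM184C. In these values 10 wells above 35 cycles had been set to 35 and 25 nd wells filled. Another deposited table holds the authors' fold changes over CA and was not used. No column was left without a sample.

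The sign of ΔCT was turned and nd wells were taken as missing. Of the 297 assays, a repeat assay of ACTA2 was not tested, and ACTA2 values come from the first assay. A gene was tested where both groups had at least 2 detected wells. GPN1 and TMEM184C were not tested. Models with 1 mean per group were fitted over all 15 samples in limma 3.58.1 (R 4.3.3), as the moderated form of the linear model named in the study's methods, with Benjamini-Hochberg adjustment over all genes tested and a threshold of 0.05. The code was tested on simulated data. Differences between the genes were tested by exact permutation, with an interval spanned by all pairwise differences (Python 3.11.15, scipy 1.17.1). Alternatives covered the normalisers, filled wells, exposure plate, replicate number, moderation, control set and each sample left out. A product was found in 283 to 287 wells of each sample. PCR arrays give no read depth, and the number of samples limits the precision.

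Named genes were CDH1 and CLDN2, the normalisation genes, the 3 genes nearest to each member and the measured members of the lists, with values for at most 12 of these: the smallest adjusted p at HD and any that did not pass. Members and lists were chosen with earlier results of these data known. A listed gene is not reported here and is left out of the counts and medians of its list. The same CA samples serve all comparisons with CA.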

Additional observations from a re-analysis of the deposited data

How the results depend on the processing

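The calls of CDH1 and CLDN2 at HD and MD against CA, at HD against LD and for the slope kept their direction and their side of the threshold in all settings and with each sample left out. The call of CLDN2 at LD was lost with GPN1 alone (-0.32, adjusted p = 0.176), TMEM184C alone (-0.37, 0.0567), the mean of all assays (-0.27, 0.124), no normalisation genes (-0.36, 0.390), filled nd wells (-0.34, 0.0501), the plate block (-0.39, 0.0904), the compared groups alone (-0.34, 0.109) and no moderation (-0.34, 0.0513), and ranged from -0.38 to -0.28 with 1 sample left out. The CLDN2 step from MD to HD was lost with GPN1 alone (-0.35, 0.0812), TMEM184C alone (-0.27, 0.129), the plate block (-0.26, 0.372), the compared groups alone (-0.31, 0.111) and the replicate block (-0.31, 0.0979), and ranged from -0.37 to -0.23. The CDH1 step from MD to HD passed only with the mean of all assays (-0.30, 0.0407). From LD to MD, calls were lost without normalisation genes (-0.41 for CDH1, 0.215, and -0.36 for CLDN2, 0.215) and with the plate block (-0.37, 0.292, and -0.34, 0.301), and ranged from -0.50 to -0.36 for CDH1 and from -0.45 to -0.33 for CLDN2 with 1 sample left out. NEC against CA for CDH1 ranged from -0.045 to 0.070 and turned negative without NEC replicate 1 (-0.0068) or CA replicate 3 (-0.045). The within-sample difference at LD became -0.076 against the CA sample of its plate. Among listed genes, leaving out 1 sample ended calls at MD for ANKRD1 (adjusted p up to 0.116, without CA replicate 1), EHF (0.163, MD replicate 3), HES1 (0.121, CA replicate 2) and MMP7 (0.0779, CA replicate 3), at LD for LOXL2 (0.119), WNT4 (0.0770) and CD79A (0.155, all LD replicate 3) and HES1 (0.119, CA replicate 2), and at HD for CFAP53 alone (0.135, CA replicate 2). The cause of these changes was not tested.

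Same-numbered samples of LD, MD and HD did not deviate together: the correlation of their deviations across 274 genes ran from -0.15 to 0.25, it was over 0.1 in 2 of 9 pairs, and 4 of 18 checks found the best match under the same number. CA and NEC samples of the same plate did deviate together, with correlations of 0.72, 0.39 and 0.39 on plates 1, 5 and 6. With the replicate number as a block, 52 genes were called between HD and MD (58 without), 90 between MD and LD (97) and 181 between HD and LD (180), and CDH1 between MD and LD stayed called (adjusted p = 0.0458).

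Genes called at LD numbered 33, and 2 with GPN1 alone, 11 without normalisation genes, 17 with the plate block, 5 in the compared groups alone, 5 without moderation and 81 with CA and NEC as joint control. At MD they numbered 175, and 114 without normalisation genes. For NEC they numbered 3, and 1 without normalisation genes, 10 with the plate block and 9 in the compared groups alone. From MD to HD they numbered 58, and 34 with GPN1 alone and 12 with the plate block, from LD to MD 97, and 52 with GPN1 alone, 22 without normalisation genes and 1 with the plate block, and from LD to HD 180, and 100 with the plate block. At HD the calls split into 125 rises and 90 falls, and into 74 and 100 without normalisation genes. Precision is limited by 3 samples per group and 1 plate per dose.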
